A study of Mus musculus with 3 samples.

Results

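*Fcer1g*, *Tyrobp*, *Hcst* and *Syk* are 4 of the 18029 genes counted in single T cells from mice that received an allogeneic bone marrow transplant (BMT) and cyclosporin (CSA). They were listed by name, as the adaptors that carry the signal of many activating receptors and the kinase that 2 of them recruit, and because the study named a cluster of CD4+ and a cluster of CD8+ T cells Fcer1ghi after the first of them. The rule that lists them uses no measured value, and each was followed over the CD4+ and CD8+ clusters and over the doses. CSA, which blocks the calcineurin needed for NFAT-driven transcription in T cells, was given daily from day 0 at 5 mg/kg (the low dose) or 50 mg/kg (the high dose), and controls received saline. All recipients were irradiated B6D2F1 mice grafted with B6 bone marrow, B6 T cells and a small number of TEa T cells, whose transgenic T-cell receptor (TCR) sees 1 alloantigen, and their age is not given in the sources used here. Spleens were taken on day 7, those of every 2 mice were pooled and hashtagged, and sorted CD4+ and CD8+ T cells were mixed within a group, so that each group was 3 pools (6 mice) in 1 droplet capture. The 3 pools of a group share that capture, and capture and treatment cannot be told apart. TEa cells (280) were left out, which left 10091 CD4+ and 10833 CD8+ T cells.

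Many activating immune receptors have no signalling tail of their own and borrow one from a small transmembrane adaptor. FcRγ, the product of *Fcer1g*, and DAP12, the product of *Tyrobp*, each carry an immunoreceptor tyrosine-based activation motif (ITAM), a pair of tyrosines that are phosphorylated by Src-family kinases and then bind the tandem SH2 domains of SYK or its relative ZAP70. DAP10, the product of *Hcst*, has a YINM motif in place of an ITAM, recruits PI3-kinase and GRB2, and is the partner of NKG2D (*Klrk1*) on CD8+ T cells and NK cells. FcRγ and DAP12 are classical proteins of macrophages, mast cells and NK cells, while FcRγ is also made by innate-like T cells and DAP10 by most cytotoxic T cells. SYK is the main ITAM kinase of B cells and myeloid cells, and mature T cells rely mostly on ZAP70.

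The stretch of coding sequence that separates the ITAM adaptors from DAP10 is shown for the reference genes (GENCODE M21, GRCm38), in lower case with the codons of the signalling tyrosines in capitals and written 5′ to 3′ on the coding strand.
Fcer1g: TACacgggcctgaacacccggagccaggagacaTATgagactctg
Tyrobp: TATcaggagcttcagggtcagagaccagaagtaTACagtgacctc
Hcst: TACatcaacatg
The *Fcer1g* stretch lies on the minus strand of chromosome 1, with its first 6 bases at the end of exon 4 (chr1:171230067-171230072) and the other 39 in exon 5 of 5 (chr1:171229889-171229927). The *Tyrobp* stretch, on the plus strand of chromosome 7, is split by an intron at the same place, with 6 bases in exon 4 (chr7:30415670-30415675) and 39 in exon 5 of 5 (chr7:30417344-30417382). Both stretches are 45 bases long and hold 2 tyrosine codons, whereas the *Hcst* stretch of 12 bases (chr7:30417821-30417832, minus strand, exon 4 of 4) holds 1. *Tyrobp* (ENSMUSG00000030579.10, chr7:30413760-30417585) and *Hcst* (ENSMUSG00000064109.8, chr7:30417712-30419854) lie tail to tail with 126 bases between them. *Fcer1g* is ENSMUSG00000058715.11 (chr1:171229572-171234365, minus strand) and *Syk* is ENSMUSG00000021457.14 (chr13:52583173-52648792, plus strand). The coding sequences of the 3 adaptors are short, with 258 bases for *Fcer1g*, 342 for *Tyrobp* and 237 for *Hcst*.

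The 250 bases before the start of *Fcer1g* and of *Hcst* (RefSeq, GRCm38.p6) are shown because these genes gave the largest dose effects among the adaptors and CSA acts on NFAT, whose core site is GGAAA. Capitals mark GGAAA or its reverse complement TTTCC.
Fcer1g, chr1:171234350-171234599, minus strand: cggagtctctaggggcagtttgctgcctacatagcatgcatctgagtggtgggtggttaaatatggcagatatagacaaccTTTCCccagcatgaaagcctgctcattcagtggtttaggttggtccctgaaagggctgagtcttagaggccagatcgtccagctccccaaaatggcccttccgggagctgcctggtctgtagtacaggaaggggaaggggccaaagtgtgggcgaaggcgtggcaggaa
Hcst, chr7:30419855-30420104, minus strand: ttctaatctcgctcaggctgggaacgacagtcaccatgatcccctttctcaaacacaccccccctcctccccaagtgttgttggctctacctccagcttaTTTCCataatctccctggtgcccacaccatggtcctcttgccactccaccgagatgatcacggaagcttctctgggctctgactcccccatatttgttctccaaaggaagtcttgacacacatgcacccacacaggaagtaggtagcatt
Each window held 1 match, and of the 2 *Syk* windows 1 held 1 match and the other none. At least 1 match stood in 55.6% of all 32851 windows of this length, so a match marks neither gene out.

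Counts of each gene, as unique molecular identifiers (UMIs), were summed over the cells of a pool and are given as CPM, the count scaled by the total of all genes in those cells. A pool held 875 to 1479 CD4+ cells with 3994968 to 7592334 UMIs and 692 to 1615 CD8+ cells with 4392100 to 11454636 UMIs. Median UMIs per cell rose with dose, from 3097 to 4396 and 5979.5 in CD4+ and from 4108 to 6121.5 and 7183 in CD8+ T cells. Log2 changes with their standard errors (SE) come from edgeR's quasi-likelihood test of all 9 pools with TMM scaling, and adjusted p-values are Benjamini-Hochberg values over all genes tested, called at 0.05. The scaling matters here. With plain library size scaling the median gene moved by −0.37 at the low dose and −0.45 at the high dose in CD4+ T cells and by −0.43 and −0.53 in CD8+ T cells. The split of higher and lower calls at the high dose then went from 3669 and 3785 to 1599 and 6239 in CD4+ T cells, and from 4021 and 4003 to 1690 and 6794 in CD8+ T cells. At the low dose it went from 2758 and 2709 to 926 and 5718 in CD4+, and from 3241 and 3282 to 1180 and 6270 in CD8+ T cells. Changes below are therefore relative to the typical gene of the cells. Nothing in the sources says that the pools were captured or sequenced separately, so p-values measure the spread between pools of 1 capture. A lower sum over a lineage cannot tell fewer cells with a transcript from less transcript per cell.

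The cells of both Fcer1ghi clusters had T-cell transcripts and macrophage transcripts together. These clusters were C8 of CD4+ (472 cells) and C6 of CD8+ T cells (532 cells). Over the pools, the summed level of 11 T-cell markers was 4876 to 6061 CPM in the CD4+ Fcer1ghi cluster against 5562 to 5898 CPM in the other CD4+ cells, and 6436 to 8809 against 6681 to 9550 CPM in CD8+ T cells. Only *Cd8a* was at 0 in CD4+ cells and only *Cd4* in CD8+ cells among these markers. A list of 10 monocyte and macrophage markers summed to 1151 to 2009 CPM in the CD4+ Fcer1ghi cluster against 34.1 to 62.9 CPM in the other CD4+ cells. The CD8+ sums were 952 to 1640 against 68.0 to 98.1 CPM. All 10 markers were detected, none at 0, and 95.8% of CD4+ and 96.2% of CD8+ Fcer1ghi cells had at least 1 UMI of the list, against 13.6% and 30.0% of other cells. The complement gene *C1qb*, a product of tissue macrophages, stood at 591 CPM in the CD4+ Fcer1ghi cluster against 11.7 CPM elsewhere, and at 474 against 14.7 CPM in CD8+ T cells.

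Ranked by the ratio to other cells, *Fcer1g* itself was 43rd in the CD4+ and 121st in the CD8+ Fcer1ghi cluster. The leading genes were *Slc40a1*, *C1qb*, *Fcna*, *C1qa*, *Fcgr4*, *C1qc* and *Marco* in CD4+ and *Fcna*, *C1qb*, *C1qa*, *C1qc*, *Cd5l* and *Vcam1* in CD8+ T cells, most of them genes of splenic macrophages. These genes helped to make the clusters and are given as a description only. Mast cell and basophil markers summed to at most 8.60 CPM in either Fcer1ghi cluster, with *Ms4a2*, *Fcer1a*, *Cpa3* and *Mcpt8* at 0. NK markers stood at 37.2 to 95.1 CPM against 41.1 to 75.8 CPM in CD4+ and at 200 to 408 against 211 to 416 CPM in CD8+ T cells, with *Ncr1*, *Klra8*, *Klra4* and *Klri2* at 0 in the CD4+ cluster. Innate-like and NKT markers, a list that holds *Fcer1g* itself, ran from 822 to 1183 against 446 to 778 CPM in CD4+ and from 915 to 1277 against 428 to 1002 CPM in CD8+ T cells. The means of this list were 1011 against 587 CPM and 1045 against 720 CPM. *Fcer1g* alone averaged 525 against 25.6 CPM and 480 against 57.1 CPM. The excess of *Fcer1g* alone was thus larger than that of the whole list, whose other markers together were not raised in either cluster. Dendritic cell markers, led by *Cst3*, ran from 301 to 430 against 154 to 209 CPM and from 332 to 499 against 250 to 343 CPM, with *Flt3* and *Siglech* at 0. The other lists overlapped between the Fcer1ghi and the other cells, with B-cell markers at 143 to 973 against 171 to 298 CPM in CD4+ and 152 to 720 against 160 to 674 CPM in CD8+ T cells. Neutrophil markers stood at 42.2 to 409 against 61.1 to 192 CPM and at 36.6 to 157 against 67.0 to 117 CPM, and naive T-cell markers at 295 to 760 against 336 to 575 CPM and at 176 to 474 against 220 to 300 CPM. Erythroid markers stood at 7.17 to 107 against 2.94 to 32.1 CPM in CD4+ and at 0 to 227 against 3.51 to 36.3 CPM in CD8+ T cells. Megakaryocyte and platelet markers stood at 0 to 103 against 0 to 9.94 CPM and at 0 to 3.29 against 0 to 4.80 CPM, and gamma-delta T-cell markers at 0 to 16.9 against 1.51 to 4.61 CPM and at 0 to 19.8 against 1.61 to 5.44 CPM.

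Readouts that the clustering did not use directly also differed. A TCR clonotype was recorded for 71.2% ± 8.83 (SD, n = 9 pools) of CD4+ Fcer1ghi cells against 79.9% ± 5.91 of the other CD4+ cells, lower in 8 of 9 pools (difference −8.64 ± 7.09 percentage points, exact two-sided sign-flip test, p = 0.0156, adjusted p = 0.0156). For CD8+ T cells it was 75.8% ± 6.54 against 83.8% ± 4.99, lower in 9 of 9 pools (difference −7.92 ± 3.82, exact p = 0.00391, the smallest this test can give, adjusted p = 0.00781). Most Fcer1ghi cells thus had a recorded TCR, at a lower rate than the rest of their lineage. Their depth differed too. The median over pools of the median UMIs per cell was 3696 against 4453 in CD4+ (higher in 2 of 9 pools) and 4612 against 6187 in CD8+ T cells (higher in 0 of 9 pools). The part of depth in the clonotype rate was not tested. The median over pools of the median count of the anti-CD45.1 antibody per cell was 22.5 against 5 in CD4+ and 27 against 8 in CD8+ T cells, higher in 9 of 9 pools of each. The anti-CD8 antibody on CD4+ cells (8 against 6) and the anti-CD4 antibody on CD8+ cells (15 against 10) were also higher in 9 of 9 pools. The antibody of the own lineage was higher in 3 of 9 CD4+ and 1 of 9 CD8+ pools. Cells with 2 strong hashtags, the second at least 0.5 of the first, made up 9.32% of Fcer1ghi against 3.85% of other CD4+ cells, and 10.5% against 5.82% in CD8+ T cells, all pools merged. Their share was higher in 6 of 9 pools of each lineage, namely pools 2 and 3 of every group. In pool 1 of every group it was 0% in the Fcer1ghi cells and at most 0.22% in the other cells, so those pools cannot show a difference. The median mitochondrial percentage per pool was 1.57 to 2.18 in CD4+ Fcer1ghi cells against 1.60 to 1.75 in other CD4+ cells, higher in 6 of 9 pools, and 1.61 to 2.11 against 1.56 to 1.83 in CD8+ T cells, higher in 7 of 9 pools. The part of macrophage RNA, bound antibody or doublets in the *Fcer1g* level of these clusters was not tested.

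The Fcer1ghi clusters were the highest of their lineage for *Fcer1g*, *Tyrobp* and *Syk* but not for *Hcst*. *Fcer1g* stood at 525 ± 139 CPM in CD4+ C8, against means of 14.5 CPM in C2 (precursor-like cells) to 58.3 CPM in C12 (3 pools, 1 per group). In C11 the mean was 41.1 CPM over 5 pools, with a median of 0 and the only saline pool at 197 CPM. In CD8+ C6 it was 480 ± 101 CPM, against 29.0 CPM in the naive cluster C7 to 73.6 CPM in C2, a cycling effector cluster. A UMI of *Fcer1g* was seen in 73.9% of CD4+ and 77.6% of CD8+ Fcer1ghi cells, and in 55.7% and 53.5% after each cell was thinned to 2000 UMIs.

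*Tyrobp* had the same shape at 287 ± 60.5 CPM in CD4+ C8 and 281 ± 74.5 CPM in CD8+ C6. The other CD4+ clusters ran from 1.61 to 61.8 CPM, the latter in C12, where 1 pool stood at 175 CPM, and the other CD8+ clusters ran from 7.78 to 19.4 CPM. *Syk* reached 17.1 ± 14.2 CPM in CD4+ C8 and 18.01 ± 7.51 CPM in CD8+ C6 and no more than 5.82 CPM in any other cluster, and its SD in C8 was nearly as large as its mean.

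*Hcst* was spread over all clusters, given here as means over the pools of all doses. The highest CD4+ levels were 698 ± 136 CPM in C1, the less activated effector cells, and 690 CPM in C12, and the lowest was 174 ± 91.8 CPM in C6, a cycling effector cluster. C8, at 474 ± 152 CPM, had 4 clusters above it. Among CD8+ clusters the Cd226lo effector cells of C1 (650 ± 111 CPM) and the Cd226hi effector cells of C0 (634 ± 314 CPM) were highest. The wide spread of C0 followed dose, with group means of 230 CPM with saline and 751 and 923 CPM at the low and high dose. With saline alone C0 lay below C1 (507 CPM) and the naive C7 (441 CPM). Over all doses C6 stood at 492 ± 193 CPM with 3 clusters above it. Cycling cluster C4 was lowest at 144 ± 50.4 CPM, with no high-dose pool of enough cells. The clusters were made from these counts, so none of these levels was tested between clusters.

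**Figure D1:**
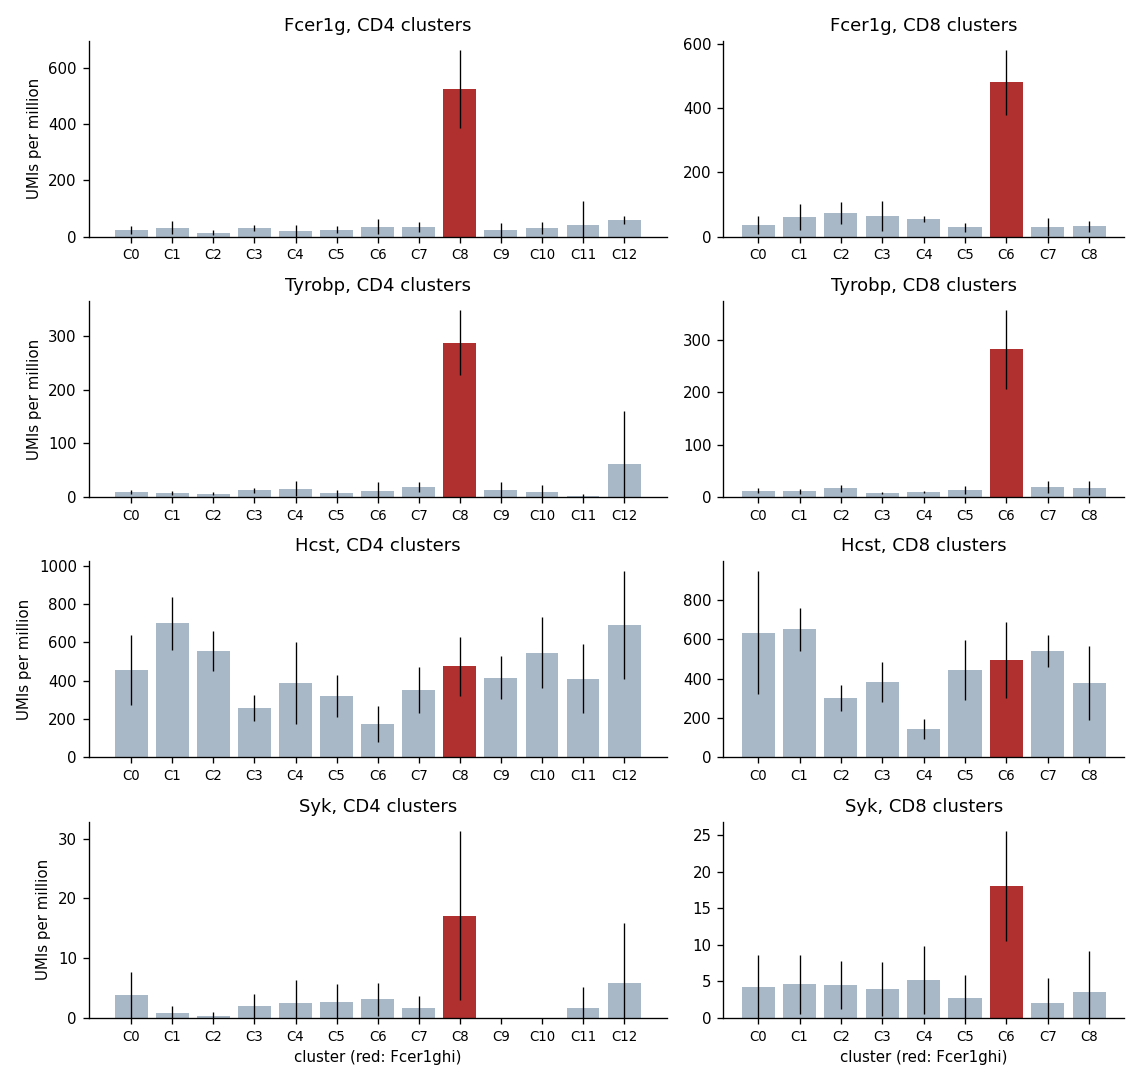
Mean level of the 4 genes in every CD4+ (C0 to C12) and CD8+ (C0 to C8) cluster, in CPM. Bars are means over those pools in which the cluster had 10 cells or more, error bars are SD, and red marks the Fcer1ghi clusters. *Fcer1g* and *Tyrobp* stand out in CD4+ C8 (525 and 287 CPM) and CD8+ C6 (480 and 281 CPM), while *Hcst* is high in many clusters.

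Across the 22 clusters of both lineages, *Fcer1g* and *Tyrobp* followed each other with Pearson's r = 0.80 on the log2(CPM + 1) scale, but r was 0.18 over the 20 clusters left without the Fcer1ghi clusters. *Fcer1g* and *Syk* gave 0.81 and 0.61, *Tyrobp* and *Syk* 0.70 and 0.32, and *Fcer1g* and *Hcst* only 0.05. These clusters share pools and captures and no p is given. Among 9697 genes, those whose pattern was most like *Fcer1g* were *Agap1* (0.90), *Clec4b1* (0.89), *Clec4n* (0.88), *Nr1h3* (0.87) and *Cd14* (0.87), and among those most like *Tyrobp* were *Aif1* (0.96), *Ms4a7* (0.94), *Ccl6* (0.93) and *Igf1* (0.92). For *Syk* they were *Spi1* (0.86), *Gbp2b* (0.86), *Cd38* (0.83), *Fgr* (0.83) and *Batf3* (0.82). *Hcst* had different companions, among them mitochondrial, translation and ribosome biogenesis genes. They were *Uqcc3* (0.93), *Pfdn5* (0.93), *Eif3f* (0.92), *Nop53* (0.92) and *Uqcrh* (0.91).

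*Fcer1g*, whose product is the shared FcRγ chain, rose in CD8+ T cells at the low dose and at the high dose did not differ from saline past the test. Its level in the 3 CD8+ pools was 71.3, 74.4 and 81.1 CPM with saline, 78.1, 112 and 109 CPM at the low dose and 34.7, 58.2 and 48.9 CPM at the high dose. Each pool at the high dose lay below every other pool in CPM, and only 1 pool at the low dose overlapped the saline range. With TMM scaling the change was 0.84 ± 0.13 at the low dose (adjusted p = 2.23e-05) and −0.15 ± 0.14 at the high dose (adjusted p = 0.339), and the high dose was lower than the low dose, with a change of −0.99 ± 0.13 (adjusted p = 1.37e-05). With library size scaling the high dose passed the test against saline at −0.68. Without CSA 50 mg/kg pool 1 the TMM change at the high dose was 0.02. Of all genes tested in CD8+ T cells, 60.2% were called at the low dose, 74% at the high dose (37.1% higher and 36.9% lower) and 41% between the doses, so a call by itself did not set a gene apart.

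In CD4+ T cells the sum over all cells did not pass the test at either dose. *Fcer1g* stood at 43.3, 44.9 and 49.6 CPM with saline, at 41.5, 61.9 and 44.5 CPM at the low dose and at 21.7, 58.8 and 34.8 CPM at the high dose. The groups overlapped, and the SD grew from 3.26 CPM in the saline pools to 11.03 and 18.8 CPM. The change was 0.45 ± 0.21 (adjusted p = 0.0822) at the low dose and 0.18 ± 0.21 (adjusted p = 0.466) at the high dose, where 51.7% and 70.5% of genes were called (34.7% higher and 35.8% lower at the high dose) and 41.2% between the doses. Single pools decided these values. Without CSA 50 mg/kg pool 1 the high-dose change was 0.45 (adjusted p = 0.0165), without pool 2 it was −0.25, and the low-dose change of 0.46 passed the test without either of them (adjusted p = 0.0145 and 0.00827).

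**Figure D2:**
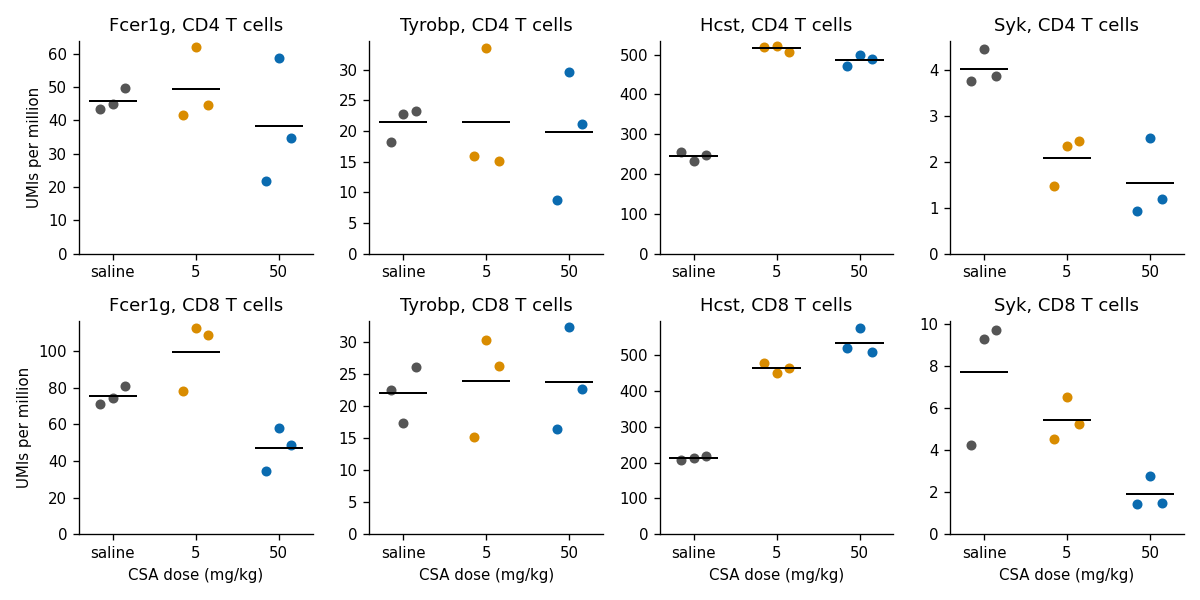
Level of each gene in the 9 pools by CSA dose (0 is saline), in CPM, for all CD4+ and all CD8+ cells; dots are pools and lines are group means. *Hcst* at 5 and 50 mg/kg lies above every saline pool in both lineages, *Syk* falls at 50 mg/kg in CD8+ T cells, and the CD4+ pools of *Fcer1g* and *Tyrobp* spread at 50 mg/kg.

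Behind the sum over all CD4+ cells, the changes at the high dose were of opposite sign inside and outside the Fcer1ghi cluster. Inside it, *Fcer1g* stood at 359, 532 and 422 CPM with saline, 525, 507 and 448 CPM at the low dose and 793, 699 and 437 CPM at the high dose. The change was 0.36 ± 0.17 (adjusted p = 0.224) at the low dose and 0.73 ± 0.16 (adjusted p = 3.28e-04) at the high dose, although CSA 50 mg/kg pool 3 lay within the saline range. In the other CD4+ clusters together the pools stood at 31.9, 30.5 and 32.3 CPM, then 27.4, 35.5 and 30.1 CPM, then 7.47, 18.3 and 16.9 CPM, so that every pool at the high dose lay below all others. There the change was 0.34 ± 0.16 (adjusted p = 0.0835) and −0.70 ± 0.18 (adjusted p = 0.0013), and DESeq2 gave −0.69 with adjusted p = 0.0541 at the high dose. The share of genes called was 7.9% and 34.1% in the Fcer1ghi cluster and 52.4% and 70.9% in the others, at the low and the high dose.

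CD8+ T cells showed the same split. In the CD8+ Fcer1ghi cluster *Fcer1g* stood at 470, 337 and 418 CPM with saline, 448, 424 and 430 CPM at the low dose and 666, 596 and 528 CPM at the high dose, where all pools lay above the rest (0.34 ± 0.14, adjusted p = 0.101, and 0.85 ± 0.13, adjusted p = 6.40e-07). In the other CD8+ clusters it stood at 61.4, 66.9 and 67.3 CPM, then 67.3, 93.4 and 97.1 CPM, then 14.5, 22.6 and 23.6 CPM. It rose by 0.85 ± 0.12 at the low dose (adjusted p = 6.53e-06) and fell at the high dose, with a change of −1.13 ± 0.14 (adjusted p = 6.89e-07). The backgrounds were 13.3% and 38% of genes called in the Fcer1ghi cluster and 60% and 74.3% in the others.

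At the high dose the Fcer1ghi clusters held most of the *Fcer1g* UMIs of each lineage. In CD4+ T cells they held 28.9%, 34.1% and 37.8% in the saline pools, 35.9%, 45.9% and 34.7% at the low dose and 66.2%, 70.8% and 53.4% at the high dose. The CD8+ shares were 15.96%, 12.6% and 20.3%, then 16.3%, 21.6% and 14.0%, then 59.7%, 63.5% and 54.1%. Every pool at the high dose lay above all others in both lineages. The share of cells in the clusters gave no trend past the test. It was 4.37% ± 1.18, 5.15% ± 1.96 and 4.57% ± 2.58 of CD4+ cells (exact permutation test of the trend, p = 0.831, adjusted p = 0.900 over the clusters) and 4.06% ± 1.03, 5.50% ± 1.61 and 5.45% ± 1.56 of CD8+ cells (exact p = 0.277, adjusted p = 0.357). For *Hcst* they held only 4.27% to 4.63% of CD4+ and 3.62% to 5.45% of CD8+ UMIs as group means, about their share of cells. For *Tyrobp* the group means went from 48.3% to 54.4% and 56.0% in CD4+ and from 35.0% to 46.8% and 59.0% in CD8+ T cells. For *Syk*, from few UMIs, the group means were 9.83%, 6.41% and 53.5% in CD8+ T cells, and 12.8% and 21.3% in the saline and low-dose CD4+ pools. The high-dose CD4+ pools were at 83.3%, 88.2% and 0%.

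**Figure D3:**
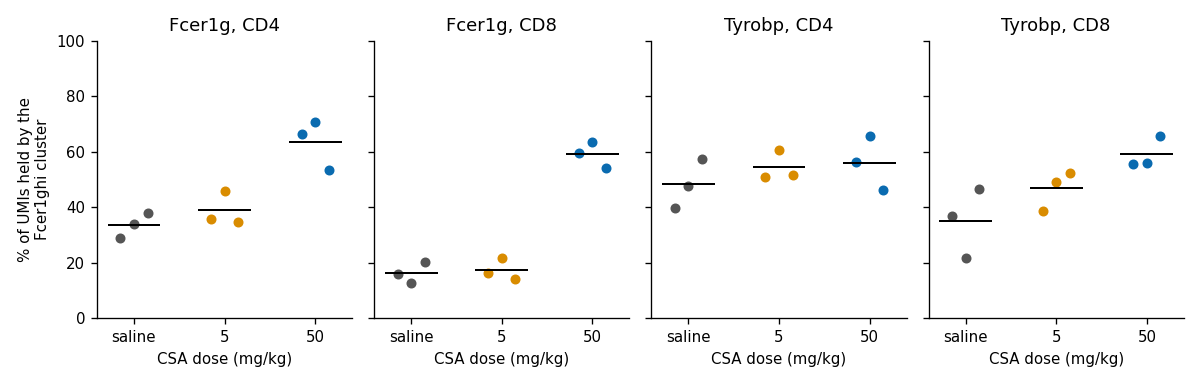
Share of all *Fcer1g* and *Tyrobp* UMIs of a lineage that fell in its Fcer1ghi cluster, in percent, by CSA dose; dots are pools. For *Fcer1g* the pools at 50 mg/kg lie at 53.4% to 70.8% in CD4+ and 54.1% to 63.5% in CD8+ T cells, above all pools of the other groups.

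*Fcer1g* also fell at the high dose in cells with no macrophage-marker UMI, a set of cells chosen after the data were seen. This set kept 83.6%, 81.9% and 81.8% of CD4+ and 69.5%, 68.2% and 62.0% of CD8+ cells in the 3 groups, and it depends on depth because a deep cell is more likely to show a marker. One marker, *Cd68*, was also seen at 31.2 CPM in the CD8+ clusters other than Fcer1ghi, against 107 CPM in C6. In the CD4+ cells kept, *Fcer1g* stood at 21.4, 25.3 and 22.5 CPM with saline, 23.5, 19.9 and 26.5 CPM at the low dose and 1.48, 2.96 and 4.24 CPM at the high dose, the last from 8, 15 and 25 UMIs. The change was 0.38 ± 0.15 (adjusted p = 0.0413) and −2.54 ± 0.22 (adjusted p = 2.86e-10). In the CD8+ cells kept, the pools stood at 54.8, 55.4 and 57.4 CPM, then 63.9, 80.6 and 85.5 CPM, then 9.33, 7.77 and 12.5 CPM. Here each group lay apart from the others, with changes of 0.91 ± 0.10 (adjusted p = 1.97e-07) and −1.94 ± 0.14 (adjusted p = 6.41e-11). Of all genes tested in the cells kept, 50.2% and 69.2% were called in CD4+ and 57.5% and 71.3% in CD8+ T cells.

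**Figure D4:**
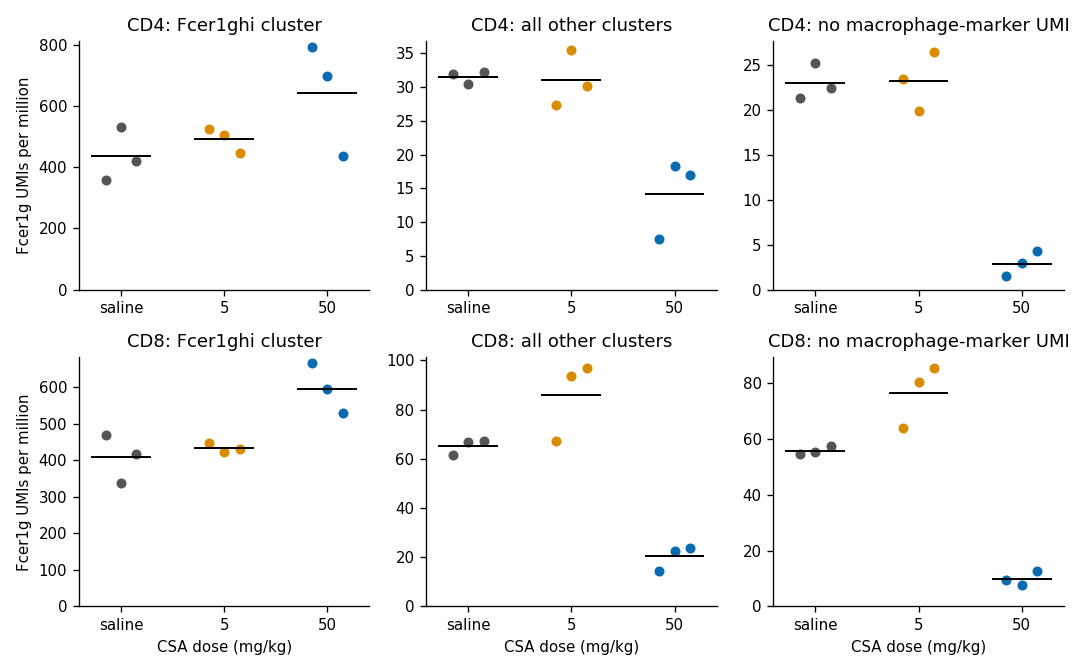
*Fcer1g* level per pool (dots, CPM) by CSA dose in the Fcer1ghi cluster, in all other clusters and in cells with no macrophage-marker UMI, for CD4+ and CD8+ T cells; each panel has its own axis. At 50 mg/kg the level is 437 to 793 CPM in the CD4+ and 528 to 666 CPM in the CD8+ Fcer1ghi cluster, and 1.48 to 4.24 CPM and 7.77 to 12.5 CPM in the cells with no marker UMI.

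Outside the Fcer1ghi clusters the macrophage markers did not show the fall of *Fcer1g*. Their summed level there had group means of 52.2, 48.7 and 45.5 CPM in CD4+ and 95.003, 81.0 and 84.0 CPM in CD8+ T cells, with overlapping groups. In these clusters, 31.1%, 38.8% and 69.6% of the CD4+ cells with an *Fcer1g* UMI also had a macrophage-marker UMI in the 3 groups, and 40.8%, 41.0% and 63.9% of the CD8+ cells. Among cells without an *Fcer1g* UMI the shares were 10.9%, 11.4% and 11.6% in CD4+ and 25.1%, 24.2% and 32.3% in CD8+ T cells. These shares were not thinned to 1 depth, and depth rose with dose. Per UMI of the 3 C1q genes, these other clusters held 0.946, 0.882 and 0.461 *Fcer1g* UMIs in CD4+ and 1.46, 1.74 and 0.722 in CD8+ T cells. Inside the Fcer1ghi clusters the same ratio was 0.285, 0.327 and 0.383 in CD4+ and 0.358, 0.368 and 0.413 in CD8+ T cells. For *Tyrobp* the ratio in the other clusters was 0.345, 0.270 and 0.282 in CD4+ and 0.324, 0.258 and 0.340 in CD8+ T cells. At the high dose the *Fcer1g* ratio was lower outside the clusters and higher inside them than with saline, in both lineages. The *Tyrobp* ratio outside them was lower in CD4+, with overlapping pools, and similar in CD8+ T cells. Inside them the *Tyrobp* ratio was 0.191, 0.191 and 0.169 in CD4+ and 0.222, 0.238 and 0.206 in CD8+ T cells. Inside the Fcer1ghi clusters the summed macrophage markers had means of 1520, 1515 and 1589 CPM in CD4+ and 1257, 1109 and 1426 CPM in CD8+ T cells. The part of macrophage RNA in the *Fcer1g* changes was not tested.

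The fall at the high dose was seen in several clusters fitted one by one. *Fcer1g* passed the low-count filter in 7 of the 12 CD4+ clusters other than C8. It fell in 4 of these at the high dose, with changes of −1.44 in the effector cluster C0, −2.70 in C1, −1.48 in the precursor-like C2 and −1.34 in C5, and did not pass the test in C3, C6 and C7. At the low dose it fell in C2 (−1.32) and rose in none. Of the 8 other CD8+ clusters 6 could be tested, and it fell at the high dose in C0 (−3.43), C1 (−2.28), C2 (−1.33) and C3 (−0.92) but did not pass in the Tcf7hi C5 or the exhausted C8. At the low dose it rose in 1 CD8+ cluster, the cycling C3 (1.40). Over all such fits 13.4% and 29.9% of gene tests were called in CD4+ and 24.2% and 43.9% in CD8+ clusters. A cluster whose counts were low at the high dose could pass the filter through its saline pools.

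Over all cells *Tyrobp*, which encodes DAP12, gave calls only in CD8+ T cells, and these depended on the tool and on single pools. The CD8+ pools stood at 22.6, 17.4 and 26.2 CPM with saline, 15.3, 30.4 and 26.3 CPM at the low dose and 16.4, 32.4 and 22.7 CPM at the high dose, so the groups overlapped. The edgeR changes of 0.59 ± 0.22 (adjusted p = 0.0314) and 0.64 ± 0.21 (adjusted p = 0.0109) passed the test, but DESeq2 gave adjusted p = 0.214 and 0.114, and library size scaling gave 0.16 and 0.11. The low-dose call was lost without saline pool 1 or 2 or CSA 5 mg/kg pool 2 or 3 (values 0.42 to 0.77 over all pools left out), and the high-dose call without saline pool 2 or CSA 50 mg/kg pool 2 (0.39 to 0.84). In CD4+ T cells it stood at 18.3, 22.8 and 23.3 CPM, then 15.9, 33.5 and 15.1 CPM, then 8.71, 29.6 and 21.1 CPM. The CD4+ changes were 0.33 ± 0.30 (adjusted p = 0.383) and 0.31 ± 0.29 (adjusted p = 0.337), and without CSA 50 mg/kg pool 1 the high-dose value was 0.65 (adjusted p = 0.00959).

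Inside the CD4+ Fcer1ghi cluster no change of *Tyrobp* passed the test. The CD4+ pools stood at 208, 378 and 302 CPM, then 284, 363 and 227 CPM, then 270, 326 and 229 CPM, with adjusted p of 0.662 and 0.620 for the doses. The CD8+ pools stood at 344, 135 and 309 CPM, then 208, 260 and 390 CPM, then 292, 292 and 298 CPM. The CD8+ high-dose change of 0.49 ± 0.18 (adjusted p = 0.0318) was lost without saline pool 2, the lowest pool (0.19, adjusted p = 0.414), and by DESeq2 (adjusted p = 0.143). In the other clusters *Tyrobp* was low, at 3.89 to 13.9 CPM in CD4+ and 7.54 to 16.4 CPM in CD8+ T cells, and no dose passed the test, but library size scaling called the high dose in CD8+ T cells (−0.50, adjusted p = 0.0339). In cells with no macrophage-marker UMI it fell only in CD4+ T cells at the high dose, where the pools stood at 5.94, 9.47 and 6.96 CPM without CSA and at 1.66, 2.76 and 4.07 CPM with it (−0.96 ± 0.30, adjusted p = 0.00641), and the CD8+ change was −0.03.

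*Hcst*, which encodes the NKG2D adaptor DAP10, rose at both doses in both lineages. In CD4+ T cells the pools stood at 254, 233 and 248 CPM with saline, 520, 521 and 506 CPM at the low dose and 473, 500 and 489 CPM at the high dose. The change was 1.43 ± 0.04 at each dose (adjusted p = 6.21e-17 and 2.86e-17). The difference between the doses was −0.00 in CD4+ T cells. The CD8+ pools stood at 207, 213 and 218 CPM, then 477, 450 and 463 CPM, then 521, 576 and 508 CPM, changes of 1.55 ± 0.05 (adjusted p = 9.50e-15) and 1.86 ± 0.05 (adjusted p = 5.08e-16), and here the high dose lay above the low dose by 0.31 ± 0.04 (adjusted p = 2.19e-05).

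*Hcst* rose inside the Fcer1ghi clusters as well as outside them. The CD4+ cluster went from 316, 235 and 310 CPM in the saline pools to 619, 606 and 566 CPM at the low dose and 456, 639 and 521 CPM at the high dose (1.24 ± 0.16 and 1.18 ± 0.16). The CD8+ cluster went from 194, 256 and 290 CPM to 712, 593 and 595 CPM and 519, 657 and 616 CPM (1.54 ± 0.15 and 1.56 ± 0.14). The changes in all other clusters were 1.44 and 1.44 in CD4+ and 1.54 and 1.87 in CD8+ T cells, and in cells with no macrophage-marker UMI 1.41 and 1.44, and 1.58 and 1.88. Cluster by cluster, *Hcst* rose in 9 of the 10 CD4+ clusters tested at the low dose, all but the cycling C6, and in 10 of 10 at the high dose, from 0.44 in C1 to 1.89 in C0. Among CD8+ clusters it rose in 6 of 7 at the low dose, all but the naive C7, and in 7 of 7 at the high dose, from 0.47 in C7 to 2.57 in C0. The naive CD4+ cluster C9 rose by 0.94 at the low and 0.72 at the high dose.

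*Syk* fell at the high dose from a low level. In CD8+ T cells the pools held 28, 74 and 75 UMIs with saline, 20, 39 and 44 UMIs at the low dose and 12, 24 and 17 UMIs at the high dose, which is 4.25, 9.27 and 9.72 CPM, then 4.55, 6.54 and 5.23 CPM, then 1.44, 2.77 and 1.48 CPM. All high-dose pools lay below all others. The change was −0.10 (adjusted p = 0.779) at the low dose and −1.54 ± 0.31 (adjusted p = 2.14e-04) at the high dose, and −1.44 between them. In CD4+ T cells there were 15, 25 and 21 UMIs, then 6, 11 and 15 UMIs, then 6, 17 and 9 UMIs, with changes of −0.56 ± 0.35 (adjusted p = 0.184) and −0.95 ± 0.34 (adjusted p = 0.0178). The CD4+ call was lost by DESeq2 (adjusted p = 0.109) and without saline pool 2 or CSA 50 mg/kg pool 1 or 3 (−1.47 to −0.71 over all pools left out). *Syk* passed the low-count filter partly through its saline pools.

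*Syk* had few UMIs in the Fcer1ghi clusters. The CD4+ cluster held 3, 1 and 3 UMIs with saline, 1, 3 and 3 at the low dose and 5, 15 and 0 at the high dose, and the CD8+ cluster held 3, 6 and 8, then 1, 2 and 4, then 6, 11 and 11 UMIs, too few for the test. In the CD8+ cluster this is 18.8, 26.9 and 26.3 CPM, then 7.999, 5.85 and 13.4 CPM, then 23.1, 20.5 and 19.2 CPM, so that all low-dose pools lay below the others. Outside these clusters the high-dose change was −2.15 ± 0.45 in CD4+ (adjusted p = 2.04e-04) and −2.43 ± 0.37 in CD8+ T cells (adjusted p = 1.10e-05). The CD4+ value rests on 12, 24 and 18 UMIs with saline, 5, 8 and 12 at the low dose and 1, 2 and 9 at the high dose. There *Syk* could pass the low-count filter only with its saline pools, in which it is high. In cells with no macrophage-marker UMI the high-dose change was −3.03 ± 0.55 in CD4+ (adjusted p = 3.78e-05), from 10, 22 and 13 UMIs with saline to 0, 2 and 3 UMIs. With 3, 7 and 6 UMIs at the low dose, it passed the low-count filter here through the saline pools, in which it is high. The CD8+ change was −3.03 ± 0.49 (adjusted p = 1.05e-05), from 13, 40 and 47 to 2, 5 and 2 UMIs. Of the single clusters only the cycling CD8+ C2 had enough *Syk* to test, with −2.47 ± 0.50 at the high dose (adjusted p = 2.13e-04).

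**Figure D5:**
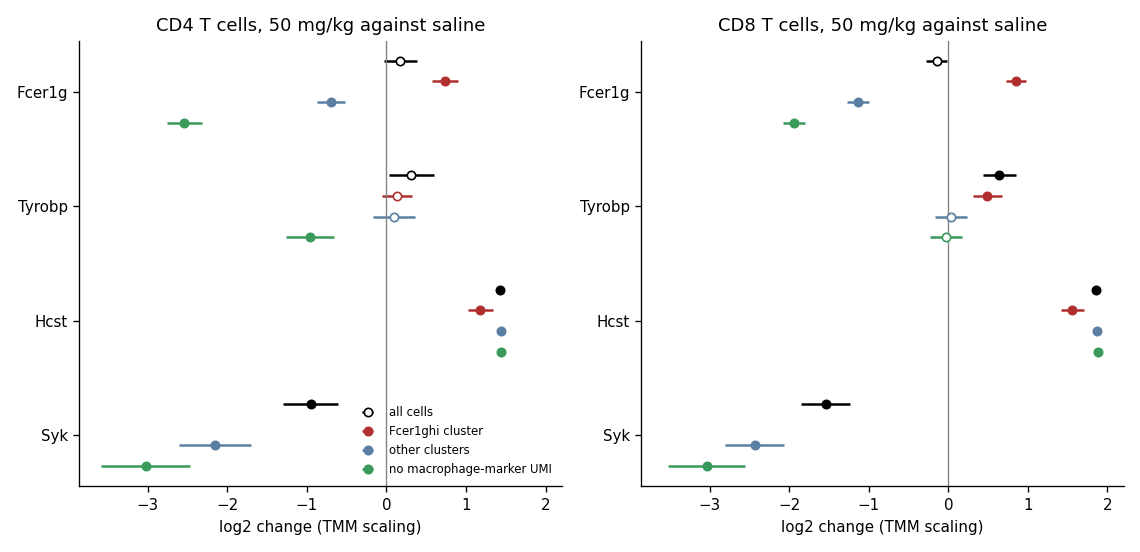
Log2 change of each gene at 50 mg/kg against saline (TMM scaling, bars are SE) in all cells (black), the Fcer1ghi cluster (red), all other clusters (blue) and cells with no macrophage-marker UMI (green); filled points have an adjusted p under 0.05 and open points do not. *Fcer1g* lies above 0 in the Fcer1ghi clusters (0.73 and 0.85) and below 0 in the other clusters (−0.70 and −1.13), *Hcst* lies between 1.18 and 1.88 throughout, and *Syk* has no value in the Fcer1ghi clusters.

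Counts per cell were also compared at 1 depth, with each cell of at least 2000 UMIs thinned to 2000. The share of cells with an *Hcst* UMI went from 37.2% with saline to 59.6% and 61.8% in CD4+ and from 34.1% to 60.3% and 65.2% in CD8+ T cells (exact permutation test of the trend, p = 0.00119 in each, the smallest this test can give, adjusted p = 0.00476 over 8 tests). Without thinning the shares were 52.3%, 75.8% and 89.8%, and 56.0%, 87.7% and 94.6%. For *Fcer1g* the thinned shares were 7.54%, 7.21% and 4.66% in CD4+ (exact p = 0.0214, adjusted p = 0.0571) and 10.8%, 12.7% and 5.88% in CD8+ T cells (adjusted p = 0.196), and unthinned 11.6%, 12.7% and 8.38%, and 19.0%, 24.9% and 11.3%. For *Tyrobp* they were 4.02%, 4.16% and 2.63%, and 4.06%, 5.21% and 4.04% (adjusted p = 0.252 and 1), and for *Syk* 0.593%, 0.333% and 0.367%, and 1.37%, 1.07% and 0.491% (adjusted p = 0.593 and 0.196). *Hcst* alone passed this test. The test looks for a steady trend over the doses, so it has little power for a rise followed by a fall. The CD8+ *Fcer1g* shares of the pools were 10.4% to 11.4% with saline, 10.0% to 14.0% at the low dose and 4.04% to 6.83% at the high dose.

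Naive cells were set beside these shares as a possible level of free RNA. In the naive clusters at the same depth, *Fcer1g* was seen in 3.18% and 5.74% of CD4+ cells in the saline and low-dose groups and in 0 of 83 cells at the high dose, which allows a share of up to 3.61% (counting error only). In naive CD8+ cells the shares were 7.97%, 3.53% and 3.87% in the 3 groups, from 110 to 161 cells each. These naive pools ranged from 0% to 16.2% with saline and from 0% to 6.52% at the high dose. The thinned share in the CD8+ clusters other than Fcer1ghi was 9.23%, 10.3% and 2.79%, and in the CD4+ ones 5.59%, 4.95% and 1.92%. The naive values rest on few cells and spread too widely to tell expression from background in these other clusters. *Hcst* was seen in 66.5%, 65.2% and 67.3% of naive CD8+ cells. In cells with no macrophage-marker UMI the thinned *Fcer1g* share was 4.71%, 3.69% and 0.820% in CD4+ (trend test, adjusted p = 0.00317) and 8.05%, 8.84% and 1.88% in CD8+ T cells (adjusted p = 0.216). These CD8+ pools ran from 7.34% to 8.78% with saline, 7.36% to 10.2% at the low dose and 1.45% to 2.60% at the high dose. The trend test has little power for such a pattern.

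As a group, CD8+ T cells carried more *Fcer1g* than the CD4+ T cells of the same pools at every dose, but not in each pool. With pool as a block, the difference was 0.75 ± 0.09 with saline (adjusted p = 3.08e-07), 1.10 ± 0.09 at the low dose (adjusted p = 3.33e-10) and 0.42 ± 0.09 at the high dose (adjusted p = 0.00105). The high-dose difference ran from 0.32 to 0.66 over all pools left out. CSA 50 mg/kg pool 2 stood at 58.8 CPM in CD4+ and 58.2 CPM in CD8+ T cells. *Syk* was higher in CD8+ T cells by 1.00 ± 0.22 with saline (adjusted p = 6.60e-04, but 0.22 by DESeq2) and 1.40 ± 0.28 at the low dose (adjusted p = 2.87e-04), and by 0.39 at the high dose (adjusted p = 0.399). *Hcst* changed its order, lower in CD8+ T cells with saline (−0.17 ± 0.04, adjusted p = 0.00148, or 0.0506 without saline pool 1), at −0.09 at the low dose (adjusted p = 0.0566) and higher by 0.23 ± 0.03 at the high dose (adjusted p = 1.11e-05). *Tyrobp* gave 0.04, 0.29 and 0.36 ± 0.14, and the last (adjusted p = 0.0477) was lost by DESeq2, outside the Fcer1ghi clusters, and without any of saline pool 3, CSA 5 mg/kg pool 1 or the 3 CSA 50 mg/kg pools. Of all genes, 40.4%, 34.3% and 30.4% differed between the lineages in the 3 groups.

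Over all cells, the dose effect itself differed between the lineages only for *Hcst* at the high dose, where the CD8+ rise exceeded the CD4+ rise by 0.40 ± 0.05 (adjusted p = 5.98e-06), with 19.8% of genes called. At the low dose, where 3.65% of genes were called, the *Hcst* difference was 0.08 (adjusted p = 0.513). For *Fcer1g* the difference of the effects was 0.35 (adjusted p = 0.155) and −0.33 (adjusted p = 0.0839). Outside the Fcer1ghi clusters both passed the test, at 0.47 (adjusted p = 0.0304) and −0.47 (adjusted p = 0.0187), and over all cells the second passed without CSA 50 mg/kg pool 1 or 3 (−0.43 each). In cells with no macrophage-marker UMI the second was 0.57, of the opposite sign (adjusted p = 0.161). *Tyrobp* (0.24 and 0.32, adjusted p = 0.660 and 0.323) and *Syk* (0.41 and −0.61, adjusted p = 0.661 and 0.332) gave no difference past the test.

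The receptors that pair with these adaptors moved in several directions. Of 15 genes whose products use FcRγ, 5 could be tested in CD4+ T cells, with 2 higher and none lower at the low dose and 1 higher and 2 lower at the high dose (median change 0.42 and 0.43, against −0.01 for all genes). Among CD8+ T cells 6 could be tested, with 5 higher and none lower, then 3 higher and 2 lower (medians 0.63 and 0.16, against 0.00). The shares of all genes called at the 2 doses were 51.7% and 70.5% in CD4+ and 60.2% and 74% in CD8+ T cells. At 50 mg/kg *Klrb1c*, which encodes the NK1.1 receptor, fell in both lineages, with group means from 5.24 to 0.538 TMM-scaled CPM in CD4+ (−3.23) and from 5.20 to 0.790 in CD8+ T cells (−2.59), after 9.77 at the low dose in CD8+ T cells. Its high-dose level is near the floor. It could pass the low-count filter only with pools of the other groups, in which it is higher, which limits both changes. *Fcgr3*, the low-affinity Fc receptor CD16, fell too (−1.17 and −0.69). *Il3ra*, an interleukin 3 receptor chain listed as an FcRγ partner, rose by 0.56 and 0.80 (0.12 in CD4+ with library size scaling), and *Fcgr4* rose by 1.02 in CD8+ T cells.

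Few partners of DAP12 and DAP10 could be tested. Their calls stand against 51.7% and 60.2% of all genes called at the low dose and 70.5% and 74% at the high dose, in CD4+ and CD8+ T cells. Of 13 DAP12 partners 2 could be tested in CD4+ T cells, 1 of them higher at each dose, and 3 in CD8+ T cells, with 2 higher and 1 lower at each dose. *Klrd1*, which encodes CD94 of the CD94/NKG2 receptors, rose from 85.0 to 173 TMM-scaled CPM in CD4+ (1.03) and from 167 to 627 in CD8+ T cells (1.91) at the high dose, and *Pilrb1* rose in CD8+ T cells (1.43). *Klrc2*, the activating NKG2C chain that pairs with CD94, fell (−1.21) there. *Klrk1*, whose product NKG2D signals through DAP10, went from 22.1 to 23.3 and 84.6 TMM-scaled CPM in CD4+ T cells and from 112 to 149 and 324 in CD8+ T cells. Its change at the high dose was 1.93 ± 0.08 in CD4+ (adjusted p = 2.04e-14) and 1.53 ± 0.06 in CD8+ T cells (adjusted p = 1.86e-13). At the low dose, where *Hcst* had already risen in CD4+ T cells, *Klrk1* was at 0.07 (adjusted p = 0.644) in CD4+ and 0.41 in CD8+ T cells.

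Within the Fcer1ghi clusters the receptors of at least 10 CPM were mostly those of macrophages. In CD4+ and CD8+ T cells respectively, the Fc receptors *Fcgr4* (145 and 105 CPM), *Fcgr3* (70.2 and 65.0 CPM) and *Fcgr1* (16.3 and 13.4 CPM), the lectin Dectin-2 gene *Clec4n* (80.6 and 75.9 CPM), *Il3ra* (21.99 and 32.9 CPM) and *Sirpb1a* (11.4 and 11.3 CPM) stood beside *Klrd1* (121 and 349 CPM) and *Klrk1* (43.7 and 193 CPM). *Pira2* reached 16.1 CPM in CD4+, and *Klrc2* 19.98 CPM and *Pilrb1* 10.3 CPM in CD8+ T cells. *Gp6*, *Ncr1*, *Clec4d*, *Clec4e*, *Oscar*, *Fcer1a*, *Ms4a2*, *Trem1* and *Siglech* had no UMI there. In CD8+ T cells as a whole *Clec4n* rose by 0.74 at the high dose.

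Of 6 other ITAM genes 5 could be tested, and at the high dose 4 rose and 1 fell in CD4+ and 5 rose in CD8+ T cells, where 34.7% and 37.1% of all genes rose, with medians of 0.50 and 0.71. At the low dose 4 rose in CD4+ and 5 in CD8+ T cells, with none lower, where 51.7% and 60.2% of all genes were called. *Cd3d* rose by 0.80 and 1.14, *Cd3g* by 0.73 and 0.98 and *Cd3e* by 0.50 and 0.71, whereas *Cd247*, the zeta chain that FcRγ can replace, rose least of these TCR chains (0.25 and 0.44) and turned to −0.19 and −0.09 with library size scaling. *Cd79b*, a B-cell receptor chain, fell by 0.72 in CD4+ T cells, and in CD8+ T cells its rise of 0.28 turned to −0.25 with library size scaling.

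Of 8 kinases 7 could be tested, with 2 higher and 2 lower at the low dose in each lineage, and 3 higher and 1 lower in CD4+ and 4 higher and 2 lower in CD8+ T cells at the high dose. Among all genes 51.7% and 60.2% were called at the low dose and 70.5% and 74% at the high dose, so these counts do not set the kinases apart. *Lck*, the Src-family kinase that starts TCR signalling, rose by 0.66 and 0.86 and *Fyn*, its relative, fell (−0.89 and −1.09), while the myeloid kinase gene *Fgr* (0.67 and 1.44) rose. *Zap70*, which takes the place of *Syk* in T cells, rose by 0.35 in CD8+ T cells but was at −0.18 with library size scaling.

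Of 18 downstream genes 15 could be tested, and 2 rose and 8 fell in CD4+ and 2 rose and 9 fell in CD8+ T cells at the low dose (medians −0.36 and −0.26). The shares of all genes called at that dose were 51.7% and 60.2%. At the high dose 3 rose and 9 fell in CD4+, and 4 rose and 6 fell in CD8+ T cells (medians −0.27 and −0.09), where 35.8% and 36.9% of all genes fell, so the CD8+ share was near that of all genes. *Malt1*, a paracaspase of the NF-κB arm, fell (−1.85 and −1.30), as did *Plcg2* (−1.05 and −0.69), *Vav2* in CD4+ (−1.54) and *Vav3* in CD8+ T cells (−1.17). The adaptor *Lat* rose (1.05 and 1.00), as did *Bcl10* (0.59 and 0.73) and *Lat2* in CD8+ T cells (1.57).

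All 11 negative regulators could be tested, with 3 higher and 5 lower at the low dose in each lineage, and 1 higher and 7 lower in CD4+ and 5 higher and 6 lower in CD8+ T cells at the high dose (medians −0.23 and −0.29). The ubiquitin ligase genes *Cbl* (−1.05 and −1.05) and *Cblb* (−0.32 and −1.14), both of which restrain SYK or ZAP70 signalling, fell, and so did the lipid phosphatase gene *Inpp5d* (−0.52 and −0.66). *Dok2* rose (1.10 and 0.57), and *Ptpn6*, the SHP-1 phosphatase gene, was at −0.23 in CD4+ and 0.53 in CD8+ T cells, the latter 0.00 with library size scaling. These counts stand against 51.7% and 70.5% of all genes called in CD4+ and 60.2% and 74% in CD8+ T cells, at the low and the high dose.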

How the data were processed

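Splenic T cells of 3 groups were analysed: saline, CSA 5 mg/kg and CSA 50 mg/kg, 3 hashtagged pools of 2 mice each, with 1 droplet capture (10x 5′) per group. The deposited expression values were whole UMI counts of each gene in each cell, which the authors obtained by 10x processing and filtered; the submitters' processing notes name Cell Ranger, mm10 and Seurat 3.0.0, and the annotation is not given in the sources used here. The hashtag counts and the fraction of mitochondrial UMIs per cell were also computed by the authors before deposit, and both were used only to describe the cells. Clusters, pools, TEa marks and clonotypes were taken from the deposited table of cells. Its CD8+ cluster numbers were matched to the study's names by their cell numbers. Summed counts per cell equalled the table's totals in all 21204 cells, and 218 barcodes occurred in more than 1 capture. In 1087 cells the strongest hashtag was not that of their pool. The authors' own doublet removal is not given in the sources used here, and no doublet caller was run.

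Counts were summed per pool and tested in edgeR 4.0.16 (R 4.3.3, filterByExpr, TMM, quasi-likelihood test, all 9 pools in 1 fit, Benjamini-Hochberg over all genes, threshold 0.05). A cluster was fitted where at least 2 pools a group had 10 cells of it. CD8+ and CD4+ sums of a pool were compared with pool as a block. DESeq2 1.42.0 was an alternative. Single values per pool were compared by exact two-sided permutation tests in Python 3.11.15. The self-test on simulated counts preceded the fits. The text names the 4 genes, the 5 genes most like each across clusters, the 2 largest and 2 smallest changes of each receptor and signalling list past the threshold at 50 mg/kg, and list receptors of at least 10 CPM in an Fcer1ghi cluster. Some genes that this rule names are not reported here. A few list genes beside these (among them *Zap70*, *Cd3e*, *Bcl10*, *Inpp5d* and *Ptpn6*) were named after their values were seen. Lists of T-cell, NK, innate-like, gamma-delta, B-cell, macrophage, neutrophil, dendritic, mast cell, erythroid, platelet and naive markers checked the labels. The genes and lists were chosen with earlier results of these data known.

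Alternatives were library size scaling, no low-count filter, DESeq2, 2-group fits, other sets of cells, other thinning and leaving out each pool.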

Additional observations from a re-analysis of the deposited data

Results flagged for a closer look

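The rise of *Hcst* at 50 mg/kg differed between the lineages by a test of the difference itself. It exceeded the CD4+ rise in CD8+ T cells by 0.40 on the log2 scale (± 0.05 SE, edgeR's quasi-likelihood test with pool as a block, adjusted p = 5.98e-06), and all 3 CD8+ pools at 50 mg/kg (508 to 576 CPM) lay above all 3 CD4+ pools (473 to 500 CPM), whereas with saline the CD8+ pools (207 to 218 CPM) lay below the CD4+ pools (233 to 254 CPM).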

How the results depend on the processing

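Of 1067 values recomputed for 79 results, 955 kept their direction and side of the threshold, 48 changed sign, 30 lost and 34 gained a call. The rise of *Hcst* at both doses, the fall of *Fcer1g* in the other CD8+ clusters and the rise of *Fcer1g* in the Fcer1ghi clusters at 50 mg/kg kept their call under every alternative run. No paired analysis was possible because the pools of different groups carry different hashtags and share no animal. The cause of the changes below was not tested. All values are log2 changes at 5 or 50 mg/kg against saline unless stated.

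With library size scaling, all CD4+ cells gave −0.032 and −0.13 for *Tyrobp* at the 2 doses, −0.92 for *Syk* at 5 (now called) and −0.26 for *Fcer1g* at 50. The CD4+ Fcer1ghi cluster gave −0.044 and −0.15 for *Tyrobp*, and the other CD4+ clusters −0.023 for *Fcer1g* at 5, −0.23 and −0.35 for *Tyrobp* and −1.09 for *Syk* at 5 (called). All CD8+ cells gave 0.16 and 0.11 for *Tyrobp* (calls lost) and −0.68 for *Fcer1g* at 50 (called), the CD8+ Fcer1ghi cluster 0.14 for *Tyrobp* at 50 (lost) and the other CD8+ clusters −0.13 and −0.50 for *Tyrobp* (the second called). CD8+ against CD4+ gave −0.15 for *Hcst* at 5 (called), 0.27 for *Tyrobp* at 50 (lost) and a difference of the dose effects of −0.40 for *Fcer1g* at 50 (called).

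With no filter on low counts, CD4+ cells passed the test for *Fcer1g* at 5 (0.44, and 0.32 in the other clusters) and *Tyrobp* (0.31 and 0.30). DESeq2 lost *Syk* in CD4+ (−0.94), *Fcer1g* in the other CD4+ clusters (−0.69) and *Tyrobp* in CD8+ (0.54 and 0.64), its Fcer1ghi cluster (0.54) and against CD4+ at 50 (0.46), and *Syk* against CD4+ with saline (0.91). A fit of only the 2 groups called *Fcer1g* at 5 in CD4+ T cells (0.46).

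Cells with a TCR clonotype gave 0.045 for *Syk* in CD8+ T cells at 5 and −0.14 percentage points for the CD4+ Fcer1ghi share (main value 0.20), which was −0.095 in cells of at least 2000 UMIs. Without cells with 2 strong hashtags *Tyrobp* at 5 in CD8+ T cells lost its call (0.50). Outside the Fcer1ghi clusters CD8+ against CD4+ gave −0.10 for *Hcst* at 5 (called) and 0.28 for *Tyrobp* at 50 (lost), and the difference of the dose effects was 0.47 and −0.47 for *Fcer1g* (both called) and −0.092 for *Tyrobp* at 50.

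In cells without a macrophage-marker UMI, chosen after seeing the data, CD4+ T cells gave 0.38 and −2.54 for *Fcer1g*, −1.07 for *Syk* at 5 (all called) and −0.39 and −0.96 for *Tyrobp* (the second called). CD8+ T cells gave 0.11 and −0.027 for *Tyrobp* (lost), 0.015 for *Syk* at 5 and −1.94 for *Fcer1g* at 50 (called), and the difference of the *Fcer1g* effects at 50 was 0.57. The share of cells with a UMI, 50 mg/kg minus saline, passed for *Fcer1g* (−3.89 points) and *Tyrobp* (−1.11) in CD4+ and *Syk* (−1.19) in CD8+ T cells. Without thinning it was 1.04 and 1.73 points for *Tyrobp* in CD4+ and CD8+ T cells, of opposite sign to the thinned values. Thinned to 1000 UMIs it was 0.54 for *Tyrobp* and −0.69 for *Syk* (called) in CD8+ T cells.

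Leaving out each pool in turn changed a sign or call in the following ranges. All CD4+ cells gave 0.27 to 0.56 and −0.25 to 0.45 for *Fcer1g* (−0.70 to −0.01 between the doses), −0.13 to 0.56 and −0.070 to 0.65 for *Tyrobp* and −1.47 to −0.71 for *Syk* at 50, whose call was lost without saline pool 2 (−0.87) or CSA 50 mg/kg pool 1 (−0.71) or 3 (−0.78). The CD4+ Fcer1ghi cluster gave −0.053 to 0.36 and −0.029 to 0.32 for *Tyrobp*, and its share −0.97 to 1.58 points. The other CD4+ clusters gave 0.25 to 0.42 for *Fcer1g* at 5 and −0.18 to 0.32 and −0.18 to 0.45 for *Tyrobp*. All CD8+ cells gave −0.30 to 0.024 for *Fcer1g* at 50, −0.37 to 0.090 for *Syk* at 5 and 0.42 to 0.77 and 0.39 to 0.84 for *Tyrobp*. The CD8+ Fcer1ghi cluster gave 0.19 to 0.72 for *Tyrobp* at 50, and the other CD8+ clusters −0.31 to 0.15 for *Syk* at 5 and −0.32 to 0.20 for *Tyrobp* at 50. CD8+ against CD4+ gave −0.21 to −0.13 and −0.11 to −0.066 for *Hcst* with saline and at 5, and −0.058 to 0.25, −0.042 to 0.56 and 0.21 to 0.47 for *Tyrobp*. The difference of the dose effects was −0.43 to −0.086 for *Fcer1g* at 50 and −0.088 to 0.52 for *Tyrobp* at 5. The thinned share moved by −3.70 to −1.54 points for *Fcer1g* in CD4+ and −0.54 to 0.38 for *Tyrobp* in CD8+ T cells. *Syk* and, at 50 mg/kg, *Fcer1g* outside the Fcer1ghi clusters rest on few UMIs, which limits their precision.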
